A study of Mus musculus with 5 samples.

Results

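The constitutive proteasome subunits are the genes with a symbol made of Psma, Psmb, Psmc or Psmd and a number, leaving out Psmb8, Psmb9 and Psmb10, the interferon-inducible forms that make up the immunoproteasome. On the arrays this rule found 36 of 18193 genes, carried by 74 of 34945 probe sets with 1 gene symbol. Of these 36 members, 16 encode the core particle and 20 the regulatory particle or its assembly chaperones. The rule that picks the members uses gene names and no measured value, although the set was proposed with earlier results of these data known.

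Expression was measured in whole hearts of 5 untreated female mice on Affymetrix Mouse Genome 430 2.0 arrays. The 3 NZB_W mice (NZB/W F1, bred from NZB and NZW parents and prone to a lupus-like autoimmune disease) had lupus nephritis with moderate kidney injury and were 12 to 15 weeks old, and the 2 NZW mice were healthy controls of matched age. All hearts were perfused with saline after bleeding, and the labels name no engineered allele and no agent for either group. Because the controls are 1 parental strain of the cross, strain and disease differ together and cannot be told apart, and the titles call the arrays biological replicates. The study was set up as a pilot for genes that differ in the heart during lupus nephritis, and the question here is whether the transcripts of the standard proteasome differ between these hearts, in the core or in the regulatory particle.

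The proteasome is the cell's main machine for degrading ubiquitin-tagged proteins. Its core particle is a barrel of stacked rings: alpha subunits form the outer rings and gate the entrance, and beta subunits form the inner rings, in which Psmb6, Psmb7 and Psmb5 carry the caspase-like, trypsin-like and chymotrypsin-like active sites. The regulatory particle caps the barrel. Its base holds a ring of ATPases (Psmc) that unfold substrates and thread them into the core, and its lid removes ubiquitin. In heart muscle this system turns over sarcomere and other proteins, and under interferon the catalytic beta subunits can be replaced by Psmb9, Psmb10 and Psmb8.

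The 36 genes lie on 16 mouse chromosomes, and only Psmb5 and Psmb11 are neighbours among protein-coding genes of NCBI RefSeq (GRCm38.p6). The window of 250 bases before the annotated start was given for 29 of them. A pair of these windows is shown because Psmb5 and Psmb8 encode the constitutive and the inducible subunit of the same chymotrypsin-like site and carry different short motifs. The pair, and the motifs searched, were chosen after matches had been seen. Capitals mark the matches to the searched motifs, each sequence runs 5′ to 3′ on the strand of its gene, and no annotated gene overlaps either window. The Psmb5 window is chr14:54617996-54618245 (minus strand) and the Psmb8 window is chr17:34197945-34198194 (plus strand).
Psmb5: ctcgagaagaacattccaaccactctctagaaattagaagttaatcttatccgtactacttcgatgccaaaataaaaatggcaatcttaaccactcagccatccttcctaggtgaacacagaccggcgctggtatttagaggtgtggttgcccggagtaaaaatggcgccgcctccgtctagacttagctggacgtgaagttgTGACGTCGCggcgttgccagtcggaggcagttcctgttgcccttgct
Psmb8: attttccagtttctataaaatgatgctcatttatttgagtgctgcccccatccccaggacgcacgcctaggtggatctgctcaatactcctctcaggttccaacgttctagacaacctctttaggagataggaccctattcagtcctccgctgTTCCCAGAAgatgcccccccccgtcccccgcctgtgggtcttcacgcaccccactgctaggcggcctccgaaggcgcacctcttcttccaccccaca

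The capitals in Psmb5 match TGACNNNGC, the core of the antioxidant response element to which Nfe2l1 and Nfe2l2 bind, and those in Psmb8 match TTCNNNGAA, the pattern of the gamma-activated site, which reads the same on both strands. Motifs were searched on both strands, and the shares below are of members with a window and of the 27025 RefSeq genes with one. TGACNNNGC was in 5 of 29 members (17.2%), namely Psmb5, Psmb6, Psmc6, Psmd9 and Psmd12, against 11.5% of genes. Its longer form TGACNNNGCA, a subset of it, was in 1 of 29 (3.45%), Psmd12, against 2.80%. The CCAAT box (CCAAT) was in 12 of 29 (41.4%) against 37.5%, and the GC box (GGGCGG) in 17 of 29 (58.6%) against 35.4%. An interferon-stimulated response element pattern (GAAANNGAAA) was in 3 of 29 (10.3%), Psmb3, Psmd4 and Psmd9, against 3.46%. TTCNNNGAA was in 0 of 29 members against 8.13% of genes, and among the inducible subunits it was in Psmb8 alone of 3. These matches describe letters in a window and were not tested.

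A gene was represented by its brightest probe set, and its deposited log2 value is given for each array. The test was limma on all 11902 genes brighter than the array median on at least 2 arrays, with Benjamini-Hochberg adjustment over them and a threshold of 0.05. Of the 36 members, 34 passed this filter, and 33 of them exceeded the upper quartile of the array on all 5 arrays. Psma8 and Psmb11 did not pass. Psma8, the alpha subunit known from testis, had values of 3.80, 3.84 and 4.02 in NZB_W hearts and 3.66 and 4.04 in NZW hearts, and Psmb11, the thymus-specific catalytic subunit, was at 3.38 on every array. Array medians were 4.62 to 4.68, so these probe sets lay below the middle of each array and give no fold.

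A pair of arrays stood apart. Over the tested genes, NZB_W array 3 had the lowest correlations with the arrays of its own group, 0.977 and 0.982, where NZB_W arrays 1 and 2 reached 0.993. Beta-actin control probe sets fell off most from the 3′ to the 5′ end there (-1.31 on the log2 scale) and on NZW array 2 (-1.19), against -0.88 to -0.89 elsewhere, and a control for 18S ribosomal RNA was brightest on NZW array 2 (12.7 against 9.97 to 10.5). The 8 cardiomyocyte markers were bright on all arrays, from 11.88 to 14.26, with a median difference of -0.029. The 10 macrophage markers were all higher in NZB_W hearts (median 0.71, 0 past the threshold), with a mean on NZB_W array 3 that was 0.77 above the 5-array mean, against -0.58 to 0.081 on the others. In bulk tissue, fewer cells of a type and less RNA per cell cannot be told apart.

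By their brightest probe sets, the standard proteasome transcripts were nearly level between the groups. None of the 34 tested members passed the test, where 1 of 11902 genes did (0.0084%; it is Mtm1, myotubularin, named after its value was seen), and 0 had an unadjusted limma p under 0.05, where 5.55% of genes did. The lowest p of a member was 0.0671 (Psma2) and the lowest adjusted p was 0.859. Of the 34, 17 had a mean above that of NZW hearts and 17 below, beside 45.4% above among all genes tested. Of all 36, 18 lay above 0 as deposited. This count was 13 with arrays centred on their medians and 11 without NZB_W array 2, and it was 23 with array weights and 25 with NZB_W array 3 and NZW array 2 both left out.

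The median difference over all 36 members was 0.0018 on the log2 scale, beside -0.014 over all genes tested. The median size of a difference, without its sign, was 0.052 over the 34 tested members and 0.091 over all genes tested. The median SE was also smaller for these members, 0.081 against 0.107. Of the 34, 33 exceeded the upper quartile on every array, and no comparison with genes of like brightness was made. By its brightest probe set, no member differed by more than 0.25, a size that 14.4% of genes exceeded. The limit was chosen after the values were seen and lies just above the largest member difference. Further, dimmer probe sets of Psmd6 (0.39) and Psmc6 (-0.27) exceeded it. Over the 95% intervals of the tested members, the lowest bound was -0.58, for Psmd7, and the highest was 0.41, for Psmd3, or 1.33-fold higher. The groups did not overlap in 4 of 34 members (11.8%), beside 17.4% of all genes. Psma2 and Psma5 lay lower in every NZB_W heart, a pattern found in 9.83% of genes, and Psmd2 and Psmd4 lay higher, a pattern found in 7.6%. Leaving out 1 array moved the difference by over 1.5 times, or turned its sign, in 30 of 34 members, all but Psma2, Psmc4, Psmd2 and Psmd4.

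**Figure D1:**
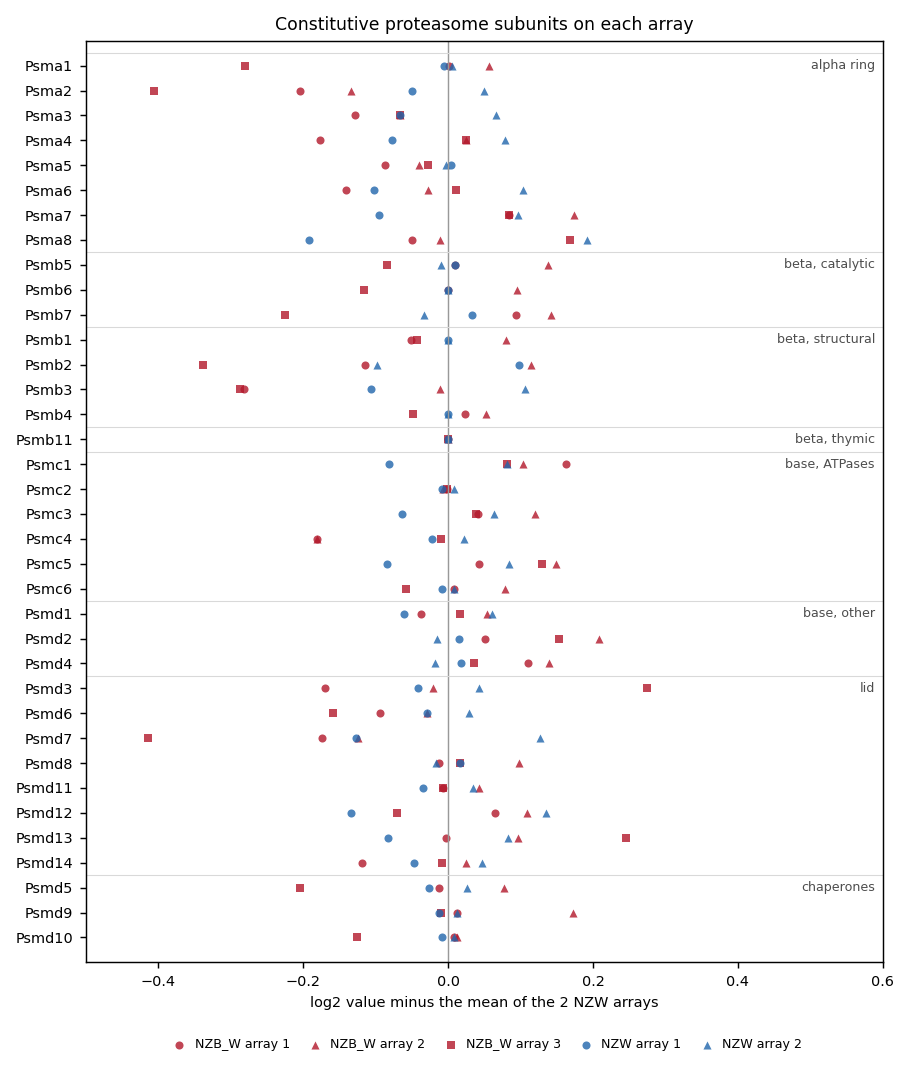
Each row is 1 of the 36 members, and the horizontal axis is its log2 value minus the mean of the 2 NZW arrays. Points are single arrays, red for NZB_W and blue for NZW, with the array number given by shape, and grey lines part the roles. NZB_W array 3 (red squares) lies to the left for all 3 catalytic subunits, while Psmb11 is at 1 value on all 5 arrays.

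Among the alpha ring genes, which form the gated outer rings, 6 of the 7 tested had a lower mean in NZB_W hearts and 0 passed the test. Their median difference was -0.053. Psma2 had values of 10.71, 10.78 and 10.51 in NZB_W hearts and 10.86 and 10.96 in NZW hearts. Every NZB_W value was below both NZW values, and the difference of -0.25 (SE 0.10, limma adjusted p = 0.859) was the largest in size of any tested member. Psma7, the alpha ring gene with a mean above that of NZW, read 10.17, 10.25 and 10.17 against 9.98 and 10.18. Its groups overlapped, since NZW array 2 exceeded 2 of the NZB_W arrays, and the difference was 0.11 (SE 0.084).

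Psma3 values were 10.69, 10.76 and 10.76 in NZB_W hearts and 10.76 and 10.89 in NZW hearts, a difference of -0.087 (SE 0.070) between groups that share a value. Psma5 was 10.50, 10.55 and 10.56 against 10.59 and 10.58. These groups did not overlap, yet the difference was only -0.051 (SE 0.057). The remaining alpha ring genes, Psma1, Psma4 and Psma6, differed by -0.074, -0.043 and -0.053 and overlapped. For Psma1 the low mean came with a single array: NZB_W array 3 read 9.90 and the other 4 arrays lay between 10.17 and 10.24, and without it the difference was 0.029.

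The 3 catalytic subunits had differences of at most 0.021 in size. Psmb5, with the chymotrypsin-like site, had values of 10.23, 10.36 and 10.14 in NZB_W hearts and 10.23 and 10.21 in NZW hearts, a difference of 0.021 (SE 0.086, 95% interval -0.20 to 0.25). Psmb6, with the caspase-like site, was at 10.41, 10.50 and 10.29 against 10.41 and 10.41, a difference of -0.0071 (SE 0.083, interval -0.23 to 0.21). Psmb7, with the trypsin-like site, was at 11.29, 11.34 and 10.97 against 11.23 and 11.16, a difference of 0.0037 (SE 0.13, interval -0.34 to 0.35). In all 3 genes NZB_W array 2 was the highest array and NZB_W array 3 the lowest, so the NZW arrays lay inside the NZB_W range. The intervals leave room for a change of up to 1.27-fold in either direction.

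Of the structural beta subunits, which complete the inner rings, 3 of 4 had a lower mean in NZB_W hearts and 0 passed. Psmb3 was at 9.83, 10.10 and 9.82 in NZB_W hearts and 10.00 and 10.21 in NZW hearts. NZB_W array 2 lay between the NZW arrays, and the difference was -0.19 (SE 0.13, limma adjusted p = 0.859). It was -0.087 without NZW array 2 and -0.30 without NZW array 1. Psmb2 was at 9.39, 9.61 and 9.16 against 9.60 and 9.40, a difference of -0.11 (SE 0.16) with the lowest value again on NZB_W array 3. Without that array the Psmb2 difference was -0.00011, and without NZW array 1 it was -0.015. Psmb1 values were 10.72, 10.85 and 10.73 against 10.77 and 10.77, a difference of -0.0047 (SE 0.070). For Psmb4 the arrays read 11.17, 11.20 and 11.10 against 11.15 and 11.15, a difference of 0.0091 (SE 0.062). Both NZW arrays share a value in Psmb1 and in Psmb4. Values equal on at least 2 arrays after rounding to 5 decimals occurred in 14 of 34 members (41.2%) and in 46.5% of all genes tested.

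Of the ATPases of the base, 4 of 6 had a mean above that of NZW hearts and 0 passed the test. Psmc4 had values of 9.44, 9.44 and 9.61 in NZB_W hearts and 9.60 and 9.64 in NZW hearts. NZB_W arrays 1 and 2 lay below the NZW arrays and array 3 between them, with a difference of -0.12 (SE 0.081, limma adjusted p = 0.859). Psmc1 was at 9.91, 9.85 and 9.82 against 9.66 and 9.82, a difference of 0.12 (SE 0.077) with NZW array 1 low. Psmc5 was at 9.56, 9.66 and 9.64 against 9.43 and 9.60, a difference of 0.11 (SE 0.081). Psmc3 was at 10.88, 10.96 and 10.88 against 10.78 and 10.91, a difference of 0.067 (SE 0.072). In Psmc1, Psmc5 and Psmc3, NZW array 1 was the lowest array and the groups overlapped. Without it their differences were 0.035, 0.024 and 0.0031. Psmc2 and Psmc6 differed by -0.0033 and 0.0095, and Psmc2 spanned only 10.91 to 10.93 over the 5 arrays.

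The other base subunits are the scaffold proteins Psmd1 and Psmd2 and the ubiquitin receptor Psmd4, and all 3 had a higher mean in NZB_W hearts. Psmd2 was at 10.25, 10.41 and 10.35 in NZB_W hearts and 10.22 and 10.19 in NZW hearts. Each NZB_W value exceeded both NZW values, and the difference of 0.14 (SE 0.072, limma adjusted p = 0.859) was the largest positive one of any tested member. Psmd4 was at 10.17, 10.20 and 10.10 against 10.08 and 10.04, again without overlap, and differed by 0.095 (SE 0.064). Psmd1 was at 10.02, 10.11 and 10.08 against 10.00 and 10.12, overlapping, and differed by 0.011 (SE 0.071).

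Among the 8 lid subunits, 5 had a mean above that of NZW hearts and 3 below, with a median difference of 0.018 and 0 past the threshold. Psmd7, which partners the deubiquitinase Psmd14, had values of 9.51, 9.56 and 9.27 in NZB_W hearts and 9.56 and 9.81 in NZW hearts. NZB_W array 3 was low and NZW array 2 was high, the other arrays lay within 9.51 to 9.56, and the difference was -0.24 (SE 0.13, limma adjusted p = 0.859). Psmd6 was at 10.23, 10.29 and 10.16 against 10.29 and 10.35, a difference of -0.094 (SE 0.069). Psmd13 was at 7.997, 8.10 and 8.25 against 7.92 and 8.08, a difference of 0.11 (SE 0.10).

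Psmd8 was at 9.36, 9.47 and 9.39 against 9.39 and 9.36, a difference of 0.034 (SE 0.065). Psmd14, which cuts ubiquitin chains off the substrate, differed by -0.034, and its values lay between 10.06 and 10.23. The structural lid subunits Psmd3, Psmd11 and Psmd12 differed by 0.027, 0.0095 and 0.034. Psmd3 had the widest spread of these, from 8.10 to 8.54 within NZB_W hearts alone, and without NZB_W array 3, its highest array, the difference was -0.096.

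The 3 chaperones that help to assemble the base are not part of the finished particle. Psmd5 was at 7.73, 7.82 and 7.54 in NZB_W hearts and 7.71 and 7.77 in NZW hearts, a difference of -0.047 (SE 0.10). Psmd9 was at 6.50, 6.66 and 6.48 against 6.48 and 6.50, a difference of 0.059 (SE 0.080). Psmd10 was at 7.24, 7.24 and 7.10 against 7.22 and 7.24, a difference of -0.035 (SE 0.072). NZB_W array 2 was the highest array in all 3 genes, and the groups overlapped in each.

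**Figure D2:**
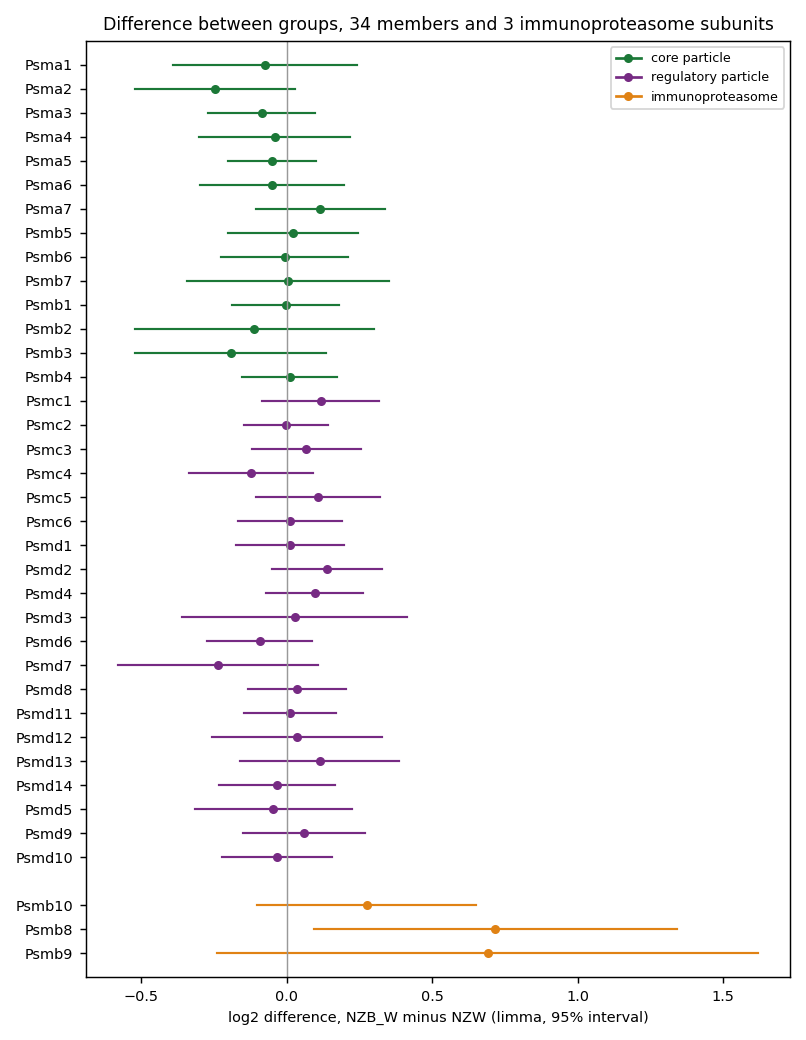
Points are limma log2 differences, NZB_W minus NZW, and bars are their 95% intervals, for the 34 tested members and the 3 immunoproteasome subunits, with colour for the particle. The members lie between -0.25 and 0.14 with intervals that all include 0, whereas Psmb8, Psmb9 and Psmb10 lie between 0.27 and 0.72 and only the interval of Psmb8 excludes 0.

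Set against each other, the 16 core members had a median difference of -0.025 (-0.047 over the 14 that passed the brightness filter) and the 20 regulatory particle members one of 0.019. Of the tested genes, 10 of 14 in the core had a lower mean in NZB_W hearts and 13 of 20 in the regulatory particle a higher one, with 0 of either past the threshold. On each array, the mean of the core members minus that of the regulatory members, each centred on its 5-array mean, was -0.015, 0.014 and -0.065 in NZB_W hearts and 0.040 and 0.027 in NZW hearts. The NZB_W values all lay below the NZW values, with 0.014 and 0.027 the nearest. Among single genes, 9.83% showed the same order. The difference of the group means was -0.055, with SDs of 0.040 (n = 3) and 0.0094 (n = 2), and no test was made of this score. It was -0.034 without NZB_W array 3. Suffixed probe sets carry an extra letter, a, s or x, before the last part of their name. With these used last, only for genes that had no other kind, the difference of the group means was -0.020.

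Neither median kept its sign in every setting. The core median was 0.028 with array weights, 0.0018 with suffixed probe sets used last, and 0.016 without NZB_W array 3 and NZW array 2. With suffixed probe sets last, the differences of Psma3, Psma5 and Psmb3 turned positive. Psma3 and Psma5 then rested on dim probe sets, at most 5.20 and 3.55 on any array. The regulatory median was -0.0023 without NZB_W array 2 and -0.013 without NZW array 1.

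**Figure D3:**
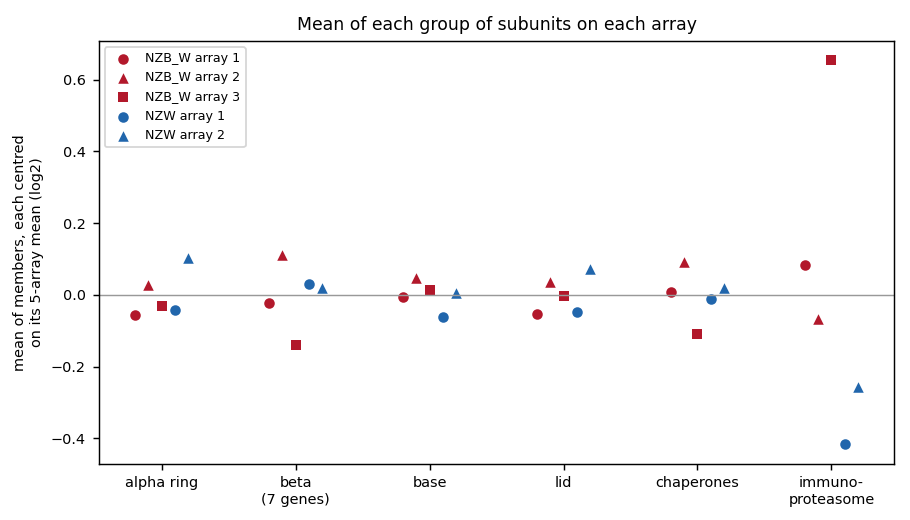
The vertical axis is the mean log2 value of each group of subunits on 1 array, after each gene was centred on its 5-array mean, and points are single arrays. The constitutive groups stay between -0.14 and 0.11, and within the beta subunits the spread among the 3 NZB_W arrays is wider than the gap between groups, whereas the immunoproteasome reads 0.65 on NZB_W array 3 and -0.42 and -0.26 on the NZW arrays.

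Array 3 of the NZB_W hearts was the lowest array for 13 of 34 members, and for 27.8% of all genes tested. NZB_W array 2 was the highest array for 18 of 34, and for 17.5% of all genes. These counts were made after the values had been seen. The beta subunits other than Psmb11 had a centred mean of 0.11 on NZB_W array 2 and -0.14 on array 3. Array 3 also had the highest centred means for the macrophage markers (0.77), the 6 interferon-stimulated genes (0.97) and the 6 endothelial markers (0.28). The same held for the 2 tested red blood cell transcripts (2.17) and the 6 fibroblast markers (0.61). Among the fibroblast markers, Col1a1 read 9.69 and Col1a2 11.75 there, against at most 7.67 and 10.09 on the other arrays. Pdgfra (9.04) and Dcn (12.80) were also highest there, but Lum (11.22) and Tcf21 (7.69) lay below both NZW arrays. The beta-actin control fell most strongly towards the 5′ end on array 3. The part of these markers and of the control in the low beta subunit values was not tested.

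Defining markers of the other cell types read as follows. The macrophage gene Itgam ranged from 4.76 to 5.39 in NZB_W hearts and from 3.69 to 3.77 in NZW hearts, and C1qb from 9.20 to 10.12 against 8.40 to 8.76. Of the 7 T and B cell markers on the arrays only Cd4 and Cd3e passed the brightness filter, and Cd3g, Cd8a, Cd79a, Cd79b and Ms4a1 lay between 2.81 and 4.92. Among fibroblast markers 3 of 6 were higher and 3 lower: Lum and Tcf21 each differed by -0.26, Pdgfra by 0.072 and Col1a1 by 0.40. Col1a1 read 6.79, 7.48 and 9.69 in NZB_W hearts and 7.67 and 7.50 in NZW hearts, so only array 3 lay above the NZW arrays. The endothelial markers were higher in 6 of 6, with a median of 0.11. The red blood cell transcript Alas2, for heme synthesis, read 9.70, 7.90 and 10.11 against 7.14 and 6.95, a difference of 2.19. Slc4a1, the red cell anion exchanger, read 7.28, 4.87 and 8.33 against 4.30 and 3.93, a difference of 2.71. In both genes the groups did not overlap, and neither passed the test. The part of any of these lists in the members' values was not tested. The interferon-stimulated genes were higher in 6 of 6, from 0.31 to 1.64, with 0 past the threshold.

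The inducible subunits had larger differences on the same arrays, although none passed the test. Psmb8 was at 7.67, 7.49 and 8.23 in NZB_W hearts and 7.05 and 7.11 in NZW hearts, a difference of 0.72 (SE 0.24, limma adjusted p = 0.859). Psmb9 was at 6.71, 6.49 and 7.59 against 6.17 and 6.31, a difference of 0.69 (SE 0.35). Psmb10 was at 9.10, 9.05 and 9.37 against 8.76 and 9.04, a difference of 0.27 (SE 0.14). Every NZB_W value exceeded both NZW values in these 3 genes, a pattern found in 7.6% of all genes. For Psmb10 the nearest values were 9.05 on NZB_W array 2 and 9.04 on NZW array 2. NZB_W array 3 was the highest in each gene, the array on which the constitutive partners were lowest.

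For each active site, the log2 ratio of the inducible over the constitutive subunit was then taken on each array and set to a mean of 0 over the NZW arrays, a comparison added after the values had been seen. Psmb8 over Psmb5 was at 0.59, 0.27 and 1.23 in NZB_W hearts and -0.038 and 0.038 in NZW hearts, a difference of 0.70. Psmb9 over Psmb6 was at 0.47, 0.16 and 1.47 against -0.073 and 0.073, also a difference of 0.70. Psmb10 over Psmb7 was at 0.10, 0.011 and 0.70 against -0.17 and 0.17, a difference of 0.27 between overlapping groups. Two-sided exact permutation tests gave p = 0.2, 0.2 and 0.6, or 0.3, 0.3 and 0.6 after Benjamini-Hochberg adjustment over the 3 ratios, where 3 arrays against 2 cannot go below 0.1 in 10 splits. Without NZB_W array 3 the differences were 0.43, 0.31 and 0.058.

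Other probe sets of a member give a second reading of the same gene. Past the brightness filter there were 22 of them in 16 members, and 18 members had only 1 probe set past it. None of the members' probe sets passed a limma test over 22819 probe sets, where 5 did (0.0219%). The other probe set had the same sign of difference as the brightest in 9 of 22, and lay within 0.1 of it in 11 of 22, with limits chosen after the values were seen. A gap of over 0.2 was found in 5 of 22.

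Psmc6 accounts for 2 of these 5. Its brightest probe set (1417771_a_at) read 9.82, 9.89 and 9.75 in NZB_W hearts and 9.81 and 9.82 in NZW hearts, while 1417770_s_at read 8.78, 8.85 and 8.74 against 9.03 and 9.01, and 1417769_at read 6.18, 6.29 and 6.24 against 6.55 and 6.46. Both dimmer probe sets were lower in every NZB_W heart, with differences of -0.23 (SE 0.064, limma adjusted p = 0.834) and -0.27 (SE 0.071, limma adjusted p = 0.764) against 0.0095 for the brightest. They are the 2 of 22 with an unadjusted limma p under 0.05, where 5.55% of all genes tested had one. Of all genes tested, 9.83% lay lower in every NZB_W heart. Psmd6 went the other way: its second probe set (1423696_a_at) read 9.95, 9.97 and 9.91 against 9.79 and 9.31, a difference of 0.39 (SE 0.16), with NZW array 2 low, against -0.094 for the brightest. The second probe set of Psmb3 (0.015) did not carry the lower values of the brightest (-0.19). That of Psmd7 read 5.05 on all arrays and so could not show a difference, against -0.24 for the brightest. It still counts among the 5 gaps over 0.2 and as a sign that did not match. The 2 probe sets of Psma7 were closer, at 0.11 and 0.13.

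**Figure D4:**
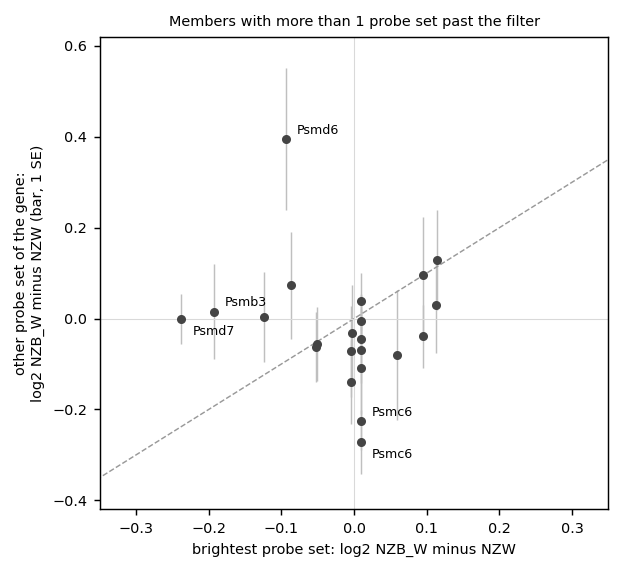
Each point is 1 of 22 further probe sets in 16 members: the horizontal axis is the log2 difference of the gene's brightest probe set, NZB_W minus NZW, and the vertical axis that of the further probe set, with a bar of 1 SE on each side. The dashed line marks equal differences, and the 5 points with a gap over 0.2 are named, among them both further Psmc6 probe sets below the line and Psmd6 above it.

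The wider ubiquitin-proteasome pathway held 0 genes past the threshold in any list. Of 6 other regulatory particle subunits and partners, 2 had a mean above and 4 below that of NZW hearts, with a median difference of -0.011. The ligase Ube3c differed by -0.076, the proteasome adaptor Ecpas by 0.10, the deubiquitinase Uchl5 by -0.053 and the thioredoxin-like Txnl1 by -0.011, and Adrm1 was not analysed here. Of 4 activators and inhibitors, 2 were above and 2 below. Psme1, a subunit of the interferon-inducible cap, was at 10.56, 10.50 and 10.46 in NZB_W hearts and 10.41 and 10.29 in NZW hearts, a difference of 0.16 (SE 0.072) without overlap. The nuclear cap Psme3 differed by -0.12, the inhibitor Psmf1 by 0.14 and the large cap Psme4 by -0.045, and Psme2 was not analysed here.

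Of 5 chaperones that assemble the core, 2 were above and 3 below. Psmg1 was at 8.49, 8.65 and 8.38 in NZB_W hearts and 8.73 and 8.70 in NZW hearts, lower in every NZB_W heart, a difference of -0.21 (SE 0.096, limma adjusted p = 0.859). Psmg3 differed by -0.14, Psmg4 by -0.065 and Pomp, the maturation factor, by 0.047. Among genes that control proteasome transcription, the activator Nfe2l1 differed by 0.041 (SE 0.089). Nfe2l2, the oxidative stress factor, was at 9.44, 9.63 and 9.15 against 9.67 and 9.73, lower in every NZB_W heart, a difference of -0.29 (SE 0.16, limma adjusted p = 0.859), with its lowest value on NZB_W array 3. Ngly1, which processes Nfe2l1, differed by -0.036, and Ddi2 was not analysed here.

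Of 6 listed genes for ubiquitin and its activating enzymes, only Uba6, a ubiquitin-activating enzyme, was analysed here. Uba6 read 7.30, 7.34 and 7.70 in NZB_W hearts and 7.19 and 7.16 in NZW hearts. The difference was 0.27 (SE 0.14), with the highest value on NZB_W array 3. Of 7 shuttle and segregase genes, 2 were above and 5 below, with a median of -0.010. Ubqln2 differed by -0.14, Rad23b by 0.065, the unfoldase Vcp by -0.090 and Ubqln4 by -0.084. Of 7 muscle ubiquitin ligases, 2 were above and 5 below, with a median of -0.085. Fbxo32, the atrophy ligase atrogin, was at 10.23, 10.24 and 9.97 in NZB_W hearts and 10.24 and 10.74 in NZW hearts, with NZW array 2 high, and differed by -0.34 (SE 0.18). Trim54 differed by 0.20 (SE 0.090), Fbxo30 by -0.25 and Mdm2 by -0.085.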

How the data were processed

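Total RNA of 5 hearts was labelled from 6 µg and hybridized to Affymetrix arrays, per the labels' protocols. The deposited log2 values come from the authors' processing. RMA, GCRMA and Partek appear in the submitters' processing notes with no version or role, so it is unknown here which method gave the values. RMA and GCRMA both summarise probes after normalizing the arrays together and differ in how they treat dim signal. No scanner files were analysed, so there are no detection calls, and precision is limited by how few arrays there are.

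Of 45101 probe sets, 64 controls were left out, 34945 carried 1 gene symbol, 932 several and 9160 none. Of those with 1 symbol, 34741 matched a RefSeq gene of GRCm38.p6, and 0 symbols changed. Promoter windows are from RefSeq. Some listed genes are not reported here.

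Groups came from the titles. limma 3.58.1 in R 4.3.3 (lmFit, eBayes, two-sided, no covariates) used all 5 arrays. The prior added 1.69 degrees of freedom to 3 residual ones, and the median SE was 0.107. The fit was tested on simulated data. Intervals are 95% limma intervals, and folds are 2 to the power of a log2 difference. Alternatives covered normalization, brightness filter, probe set choice, variance model, array weights, replicate block and left-out arrays. Every member is named, with values in full for up to 4 per role with the smallest p and all catalytic subunits; of each other list, up to 4 genes with the smallest p. The members and lists were chosen with earlier results of these data known. Python 3.11.15 and matplotlib 3.10.9 drew the figures.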

Additional observations from a re-analysis of the deposited data

How the results depend on the processing

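No member passed the threshold in any of 15 alternative settings. With array weights Psmc4 and Psmd2 had an unadjusted limma p under 0.05, as had 895 of 11902 genes. Psmc4 had one without NZB_W array 3, beside 786 genes, and Psmd2 without NZB_W array 1, beside 448. Psmc6 had one with the mean of all probe sets, beside 619 of 10729 genes. It also had one with suffixed probe sets used last, beside 632 of 11385. Settings that left out an NZW array are not covered by these unadjusted p values. Without both NZB_W array 3 and NZW array 2, the difference was -0.16 for Psmc4 and 0.22 for Psmd12. With 3 arrays against 2 and differences near their SE, signs were not settled: 23 of the 34 tested members changed sign in at least 1 setting that tested them, 68 times in all, and the largest of these had a difference of -0.19 as deposited (Psmb3). The cause was not tested.

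The count of genes passing was 1. It was 6 with a filter at the upper quartile, 5 with the mean of all probe sets and 2 with suffixed probe sets used last. With array weights it was 8, and at an adjusted p under 0.1 it was 5. Leaving out 1 array gave 0 to 1. Probe sets passing fell from 5 to 2 with no filter. Core minus regulatory particle was -0.055, moved to -0.020 with suffixed probe sets used last, and ran from -0.073 to -0.034 with 1 array left out. It was -0.064 with only members past the brightness filter, an alternative added after the data were seen. Members above 0 numbered 11 to 21 with 1 array left out.

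Replicate numbers in the titles share only a number: deviations of same-numbered arrays correlated at -0.26 and 0.10. With the replicate block, which drops NZB_W array 3, 0 genes passed, core minus regulatory particle was -0.034, and the signs changed for Psma1 (0.029), Psmb1 (0.015), Psmb6 (0.048), Psmd10 (0.010), Psmd3 (-0.096) and Psmd5 (0.032).

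Signs also changed under quantile normalization for Psmb1 (0.0065), Psmb4 (-0.00022), Psmb6 (0.0027), Psmb7 (-0.015) and Psmc2 (0.0030). Median centring did so for Psmb4 (-0.0044), Psmb7 (-0.0098), Psmc6 (-0.0040), Psmd1 (-0.0028) and Psmd11 (-0.0039). Array weights did so for Psma1 (0.020), Psmb1 (0.046), Psmb2 (0.036), Psmb6 (0.061), Psmd10 (0.00020), Psmd3 (-0.025) and Psmd5 (0.038). The mean of all probe sets did so for Psmc2 (0.019), Psmc6 (-0.16), Psmd11 (-0.051), Psmd6 (0.15) and Psmd9 (-0.060). With suffixed probe sets used last it was Psma3 (0.073), Psmb3 (0.015), Psmc4 (0.0044), Psmc6 (-0.27) and Psmd11 (-0.11). Psma5 then rests on a probe set under the brightness filter (0.0094, not tested). Leaving out both NZB_W array 3 and NZW array 2 did so for Psma1 (0.035), Psma4 (0.0019), Psma6 (0.018), Psmb1 (0.015), Psmb6 (0.048), Psmc2 (0.0046), Psmd10 (0.019), Psmd3 (-0.054) and Psmd5 (0.058).

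With 1 array left out, the ranges that crossed 0 were -0.14 to 0.029 for Psma1, -0.12 to 0.035 for Psma4, -0.16 to 0.050 for Psma6, -0.047 to 0.018 for Psmb1, -0.013 to 0.038 for Psmb4, -0.037 to 0.073 for Psmb5, -0.058 to 0.048 for Psmb6 and -0.065 to 0.12 for Psmb7. They were -0.012 to 0.0056 for Psmc2, -0.025 to 0.044 for Psmc6, -0.050 to 0.071 for Psmd1, -0.096 to 0.13 for Psmd3, -0.11 to 0.032 for Psmd5, -0.059 to 0.010 for Psmd10, -0.025 to 0.044 for Psmd11, -0.10 to 0.17 for Psmd12 and -0.081 to 0.013 for Psmd14.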
